A study of Mus musculus with 2 samples.

Results

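Conventional CD4 T cells were a small group among the lymphocytes of mouse ear epidermis, with 122 cells of 10203 kept. They were chosen from single-cell counts of unique molecular identifiers (UMIs, each marking 1 captured mRNA molecule). A cell had to have at least 1 UMI of Cd4 or Cd40lg and at least 1 UMI of Trac, the constant gene of the αβ T cell receptor α chain. It also had to have no UMI of Foxp3, Trdv4, Cd8a or Cd8b1 and at most 1 UMI of Ctla4. Cells had 500 to 2500 genes and at most 12% of their UMIs from mitochondrial genes. In the isotype library 60 of 4242 kept cells met these criteria, and in the anti-Skint1 library 62 of 5961 did.

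Both libraries came from 8 week old female wild-type mice of the FVB/NJ strain. In 1 library the ears had been injected intradermally with an isotype control antibody (rat IgG2a), and in the other with the antibody 2G2 against Skint1, a keratinocyte protein. Epidermis was taken 7 d later, digested with trypsin, and live cells positive for CD45 and negative for EpCAM and MHC class II were sorted. That gate keeps lymphocytes and removes keratinocytes and Langerhans cells. Each group was given as n = 1, with n counted in mice unless stated otherwise, and the labels do not say whether animals were pooled. GEO's labels name the sorted cells DETC, and the CD4 T cells were a minority within them. With 1 library per treatment, effects of treatment and of library cannot be told apart, and treatments were compared without a test.

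CD4 T cells see peptides on MHC class II molecules and act largely by secreting cytokines and by showing ligands such as CD40L to other cells. They are grouped by the cytokines they make: Th1 cells make interferon-γ, Th2 cells make IL-4, IL-5 and IL-13, and Th17 cells make IL-17A, IL-17F and often IL-22. Regulatory T cells, which express Foxp3, were a separate group here. In mouse epidermis most T cells are instead dendritic epidermal T cells (DETCs), γδ T cells that arrive before birth, carry an invariant Vγ5Vδ1 receptor and stay for life, so that DETCs were the main group for comparison.

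The sequences upstream of 4 type 17 genes are shown because Il17a and Il22 were higher in CD4 T cells in each comparison with another cell type below, and because Il17f and Ccr6, a chemokine receptor of Th17 cells, are further genes of that group. Each is the 250 bases before a RefSeq gene start on GRCm38.p6, read 5′ to 3′ on the strand of the gene. Capitals mark AGGTCA or its reverse complement TGACCT, core letters to which many nuclear receptors can bind. For Il17a the stretch is chr1:20730655-20730904 on the plus strand, for Il17f chr1:20784271-20784520 on the minus strand, for Ccr6 chr17:8235793-8236042 on the plus strand (the first of its starts) and for Il22 chr10:118204714-118204963 on the plus strand.
Il17a: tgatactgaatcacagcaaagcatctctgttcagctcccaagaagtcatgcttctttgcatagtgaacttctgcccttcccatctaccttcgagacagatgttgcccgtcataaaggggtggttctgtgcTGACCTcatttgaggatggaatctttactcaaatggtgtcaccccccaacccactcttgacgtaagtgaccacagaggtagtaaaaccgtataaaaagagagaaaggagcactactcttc
Il17f: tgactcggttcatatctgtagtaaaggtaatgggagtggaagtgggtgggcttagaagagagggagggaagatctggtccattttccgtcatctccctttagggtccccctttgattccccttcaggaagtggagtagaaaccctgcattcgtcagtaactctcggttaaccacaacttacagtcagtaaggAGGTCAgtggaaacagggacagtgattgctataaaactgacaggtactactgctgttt
Ccr6: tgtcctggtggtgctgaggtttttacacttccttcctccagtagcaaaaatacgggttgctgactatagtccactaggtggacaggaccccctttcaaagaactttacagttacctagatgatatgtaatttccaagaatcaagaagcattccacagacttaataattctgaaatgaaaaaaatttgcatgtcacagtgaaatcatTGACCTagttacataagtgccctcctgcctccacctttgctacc
Il22: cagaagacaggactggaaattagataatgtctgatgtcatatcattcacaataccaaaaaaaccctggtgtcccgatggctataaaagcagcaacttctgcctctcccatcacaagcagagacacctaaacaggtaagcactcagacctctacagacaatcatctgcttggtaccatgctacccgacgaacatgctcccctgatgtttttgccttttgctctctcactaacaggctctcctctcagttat
The letters began 120 bases before the start of Il17a, 58 before that of Il17f and 44 before that of Ccr6, and were not in the window of Il22 or of the second start of Ccr6. The same letters were in 13.8% of 27025 promoters of that length, and in 10.4% of the 393 genes with a promoter that were higher in CD4 T cells than in DETCs, against 10.6% of the 2570 tested genes with one. A match is a run of letters and not a binding site. Il17a and Il17f lie on chromosome 1 at 20730905 to 20734496 and 20777146 to 20790617, so the neighbouring genes point towards each other. The RefSeq start used for Il17f lies inside that span, and the window of Il22 overlaps the first bases of the gene as the GENCODE annotation has it (from 118204942).

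The genes of the rule describe the cells and are no result. Levels are UMIs summed over the cells of a type in a library, per 1000000 UMIs of that sum (CPM). Cd4 stood at 285 CPM in the isotype library and 241 in the anti-Skint1 library, Cd40lg at 246 and 264, and Trac at 774 and 584. In the isotype library 24 cells had a Cd4 UMI only, 19 had a Cd40lg UMI only and 17 had both, and in the anti-Skint1 library the numbers were 23, 20 and 19. About as many cells therefore entered by Cd40lg alone as by both genes. Ctla4, which the rule limits, stood at 38.9 and 19.7 CPM. Cells at the edge of the rule differed in Trdc, the constant gene of the γδ receptor, and in Fcer1g, a signalling chain abundant in DETCs. Cells that met every other criterion and had no UMI of Cd4 or Cd40lg numbered 89 and 118, with Trdc at 560 and 909 CPM, Fcer1g at 617 and 829 CPM and Cd5 at 62.5 and 26.0 CPM. With exactly 1 such UMI there were 25 and 30 cells, with Trdc at 24.5 and 229 CPM, Fcer1g at 12.2 and 147 CPM and Cd5 at 220 and 165 CPM. With 2 or more there were 35 and 32 cells, with Trdc at 33.4 and 6.92 CPM, Fcer1g at 26.7 and 20.8 CPM and Cd5 at 86.9 and 145 CPM. Cells without a Trac UMI numbered 21 and 31, with Trdc at 142 and 1099 CPM, whereas those with 1 Trac UMI numbered 15 and 23, with Trdc at 16.9 and 149 CPM.

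Markers were read for the label of the cells, with those of the rule fixed by the choice. Cd5 and Cd6, neighbouring genes on chromosome 19 (10717116 to 10739002 and 10789341 to 10830058, both on the minus strand) that code for scavenger-type receptors of αβ T cells, were outside the rule and are taken up below. They mark αβ T cells rather than CD4 T cells, and neither passed against CD8 or regulatory T cells. Of the DETC markers Tcrg-V5 and Trdv4 were at 0, the latter by the rule, and Trdc was at 30.3 and 102.5 CPM against 4673 and 3846 CPM in DETCs. A Trdc UMI was found in 6 and 8 cells, and 2 cells of the anti-Skint1 library held 11 and 8 of its 26 Trdc UMIs. In barcodes with 1 to 100 UMIs, which hold free RNA, Trdc stood at 2228 and 1895 CPM, so that free DETC RNA was present in both libraries. Keratinocyte markers summed to 21.6 and 23.7 CPM over 6 genes, of which Krt5 and Krt1 were at 0, and all 6 markers of B, mast and red cells were at 0. Myeloid markers summed to 281 and 221 CPM over 8 genes, most of it from Cst3 (229 and 185 CPM) and the rest from Cd74 (43.2 and 31.5) and H2-Ab1 (8.64 and 3.94), with Lyz2, H2-Aa, Cd207, Csf1r and Fcgr3 at 0. Innate lymphoid markers summed to 977 and 1029 CPM over 8 genes, most of it from Il7r and Thy1, which T cells share, with Kit, Ncr1 and Eomes at 0. Markers of dermal γδ T cells that make IL-17 summed to 147 and 201 CPM over 6 genes against 38.2 and 38.6 in DETCs, most of it from Il17a (108 and 181 CPM), with Sox13 and Cd163l1 at 0. Of the 4 markers of invariant αβ T cells, Trav11 and Trav1, their α chain V genes, were at 0, as are most V genes in 3′ tags, and Zbtb16 and Klrb1c summed to 34.6 and 15.8 CPM against 8.19 and 4.22 in DETCs.

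The CD4 T cells had medians of 3638 and 3722.5 UMIs and 1341.5 and 1366 genes per cell, against 4027.5 and 3577 UMIs in DETCs and 4219 and 3817.5 in CD8 T cells, and summed to 231399 and 253618 UMIs. Regulatory T cells had medians of 3445.5 and 2485 UMIs, so that those of the anti-Skint1 library were shallower than the CD4 T cells beside them. The libraries shared 5 barcodes among kept cells and none among CD4 T cells, although 1 isotype CD4 barcode was also that of a kept cell in the anti-Skint1 library. CD4 T cells made up 1.41% of kept isotype cells (95% interval 1.08 to 1.82). In the anti-Skint1 library their share was 1.04% (0.798 to 1.33). Of all CD4, CD8 and regulatory T cells, they were 60.6% (50.3 to 70.3) and 68.9% (58.3 to 78.2). Each pair of intervals overlapped. These exact Clopper-Pearson intervals, and all intervals below, cover counting error only.

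**Figure D1:**
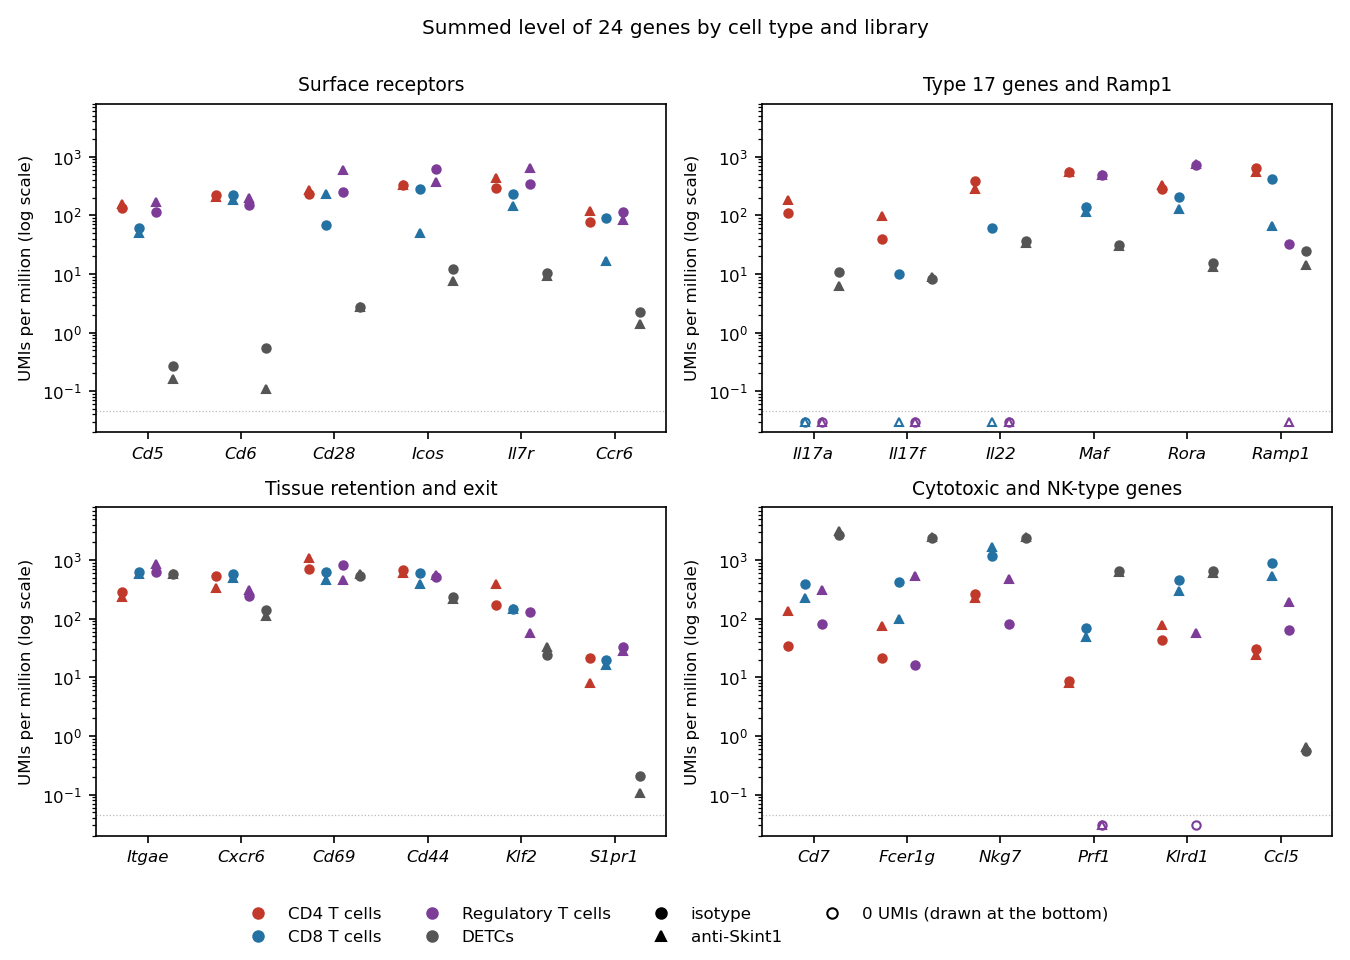
Summed level of 24 genes in CPM (UMIs per 1000000, log scale) for CD4 T cells (red), CD8 T cells (blue), regulatory T cells (purple) and DETCs (grey), with circles for the isotype and triangles for the anti-Skint1 library; open symbols at the bottom have 0 UMIs. Cd5 and Cd6 lie above 130 CPM in both CD4 sums and below 1 CPM in both DETC sums, and Il17a, Il17f and Il22 lie highest in the CD4 T cells of each library.

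The first comparison asked how epidermal CD4 T cells differed from DETCs, their most numerous neighbours. Against DETCs, CD4 T cells had higher levels of 4 surface receptor genes of αβ T cells (Cd5, Cd6, Cd28 and Icos), of several type 17 and Th1 genes, and of TNF family ligands and MHC class I genes. Other genes of αβ receptor signalling were lower or did not pass. They had lower levels of cytotoxic and natural killer (NK) type genes, chaperones, E-cadherin and the αE integrin. Sums per cell type and library were tested in 1 edgeR quasi-likelihood fit over 8 sums (4 cell types, 2 libraries) with library as a block and Benjamini-Hochberg adjustment. The libraries, which had different treatments, served as replicates, so the p-values measure only the spread between these sums. Of 3237 genes outside the rule that passed the filter on low counts, 518 (16.0%) were higher and 594 (18.4%) were lower in CD4 T cells at an adjusted p under 0.05, and the median fitted log2 difference over all of them was 0.00. A gene low in 1 type could pass that filter through another type. Counts and medians by list are therefore descriptions and no test of a list.

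Among receptors and signal genes of αβ T cells, 4 of 14 were higher, 4 were lower and 6 did not pass, with a median of 0.21. Cd6 stood at 220 and 201 CPM in the isotype and anti-Skint1 CD4 T cells, against 0.546 and 0.107 CPM in DETCs. Cd5 stood at 134 and 154 CPM against 0.273 and 0.160. The CD4 levels were close to each other in both libraries and far above both DETC levels. The fitted log2 differences were 9.38 ± 0.50 (SE, 2 libraries; edgeR adjusted p = 1.09e-13) for Cd6 and 9.31 ± 0.57 (edgeR adjusted p = 1.79e-12) for Cd5. Both genes had been proposed as markers of these cells with results of these data known. Cd28, the main costimulatory receptor for B7 ligands, stood at 233 and 272 CPM against 2.73 and 2.67 in DETCs, a log2 difference of 6.62 ± 0.35 (edgeR adjusted p = 1.09e-13). Its relative Icos stood at 328 and 331 CPM against 12.1 and 7.59 (5.18 ± 0.26, edgeR adjusted p = 2.31e-14). With each cell thinned to 1500 UMIs, Cd28 was found in 16 of 60 and 13 of 61 CD4 T cells (26.7% and 21.3%), and before thinning in 46.7% and 59.7%. In DETCs the thinned shares were 0.542% and 0.411%.

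Genes of the signalling machinery went the other way or did not pass. Cd247, the ζ chain of the receptor complex, stood at 73.5 and 98.6 CPM in CD4 T cells against 794 and 685 in DETCs (log2 difference -3.01 ± 0.25, edgeR adjusted p = 3.53e-10). Themis, an adaptor of thymic selection, stood at 17.3 and 35.5 CPM against 166 and 175, and Zap70, the kinase that binds the ζ chain, at 17.3 and 31.5 against 102 and 81.6. Trbc1, the first β chain constant gene, was lower as well (1007 and 777 CPM against 1491 and 1250). Lck, Lat, Cd2, Cd27 and Trbc2 were among those that did not pass, with fitted log2 differences between -0.26 and 0.36. Trbc2 stood at 1128 and 1108 CPM against 1097 and 979, since DETCs had β chain constant transcripts as well.

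Among γ chain genes outside the rule, 3 of 3 tested were lower, and Tcrg-V5, the V gene of the Vγ5 chain, was under the filter. The rules chose CD4 T cells by Trac and DETCs by Trdc, so this direction was in part set by the choice. Trgv2 and Tcrg-C2 had no UMI in CD4 T cells and stood at 76.0 and 108, and 75.2 and 110 CPM in DETCs, at least 15.2-fold and 15.3-fold lower. These bounds rest on a floor of 3 UMIs over both libraries, which is used for every gene at 0. Tcrg-C1 had 0 UMIs in the isotype CD4 T cells and 55.2 CPM in the anti-Skint1 ones, against 1029 and 1096 CPM in DETCs, so that γ chain RNA, like Trdc, was found mainly in the anti-Skint1 CD4 T cells. The part of DETC RNA in those values was not tested, although leaving out every CD4 T cell with a Trdc UMI left 490 genes higher and 562 lower, of which 478 and 547 were among the calls above.

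Of 10 Th17 genes 6 passed the filter, of which 5 were higher, none was lower and Batf did not pass. The median log2 difference was 4.21 against 0.00 over all genes. The 5 were low in DETCs and entered the test only through αβ T cells. This count and median were therefore in part set by the filter. Rora, a nuclear receptor, stood at 285 and 323 CPM against 15.1 and 13.4 in DETCs (4.50 ± 0.23, edgeR adjusted p = 2.75e-14). Maf, a transcription factor of several helper T cell programmes, stood at 549 and 556 CPM against 31.0 and 30.5 (4.24 ± 0.17, edgeR adjusted p = 5.83e-16). Both factors were even between the libraries, and a Maf UMI was found in 49 of 60 and 50 of 62 CD4 T cells. Ccr6 stood at 77.8 and 118 CPM against 2.25 and 1.39 (5.86 ± 0.53, edgeR adjusted p = 1.91e-09). Il17a stood at 108 and 181 CPM against 10.98 and 6.31 (4.19 ± 0.45, edgeR adjusted p = 6.16e-08), and Il22, a cytokine that acts on epithelial cells, at 385 and 276 CPM against 36.6 and 34.3 (3.28 ± 0.21, edgeR adjusted p = 1.22e-11). In both libraries these cytokines were higher in CD4 T cells than in DETCs. Il17f, which was under the filter on low counts, stood at 38.9 and 98.6 CPM against 8.19 and 8.77. Il23r, the receptor for the cytokine that maintains Th17 cells, had 1 UMI in all 122 cells. That CD4 level was 1.25 times the DETC level, with an interval from 0.0311 to 7.27, so that a difference was not detectable at this depth.

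Of 8 Th1 genes 5 passed the filter, of which 4 were higher and Il12rb2 was lower, with a median of 4.98. Those 4 were likewise low in DETCs and entered the test only through αβ T cells. Il18r1 and Il18rap, the chains of the IL-18 receptor, stood at 90.8 and 193, and 73.5 and 59.1 CPM in CD4 T cells, against 2.05 to 4.30 CPM in DETCs (5.13 ± 0.44 and 4.98 ± 0.54, edgeR adjusted p = 6.35e-10 and 4.29e-08). Ifng stood at 34.6 and 130 CPM against 3.55 and 3.64 (4.43 ± 0.59, edgeR adjusted p = 1.25e-06), and Ccl5 at 30.3 and 23.7 against 0.546 and 0.642. Il12rb2, a chain of the IL-12 receptor, had no UMI in CD4 T cells and 119 and 95.5 CPM in DETCs, at least 17.1-fold lower. Its call did not hold by DESeq2. Tbx21, which codes for T-bet, was under the filter with 4 UMIs in each library, and Cxcr3 was at 0. Th2 genes were mixed. Gata3 stood at 156 and 138 CPM against 59.5 and 63.3 (1.33 ± 0.23, edgeR adjusted p = 4.28e-05), whereas Il13 (25.9 and 71.0 CPM against 197 and 203) and Areg, an epidermal growth factor family ligand (60.5 and 213 against 593 and 557), were lower. Il1rl1, the IL-33 receptor, passed as higher on 4 UMIs that were all in the isotype library. Il5 was at 0 and Il4 had 2 UMIs, both in 1 isotype cell. No follicular helper gene was tested, and among the 6 of that list Sh2d1a, an adaptor of SLAM receptors, had the most UMIs (8 and 5).

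Of 12 genes of help to other cells 9 passed the filter, of which 7 were higher and none was lower, with a median of 1.42. Ltb, the lymphotoxin β chain, stood at 1417 and 1199 CPM against 329 and 370 in DETCs (1.98 ± 0.17, edgeR adjusted p = 5.92e-10). Tnfsf11, which codes for RANKL, stood at 82.1 and 74.9 CPM against 4.502 and 3.26 (4.42 ± 0.50, edgeR adjusted p = 7.99e-08), and Tnfsf8, the ligand of CD30, at 303 and 292 against 114 and 119 (1.42 ± 0.21, edgeR adjusted p = 7.54e-06). Csf2, the growth factor GM-CSF, stood at 125 and 213 CPM against 23.7 and 17.7. Tgfb1, Tnf and Lta made up the rest, of which the calls of Tnf and Lta did not hold by DESeq2. Il2 (112 and 43.4 CPM against 63.1 and 59.3) and Il10 (0 UMIs in CD4 T cells) did not pass. TNF receptors were split. Tnfrsf4 (OX40) stood at 194 and 162 CPM against 1.16 and 1.71 (6.95 ± 0.36, edgeR adjusted p = 1.2e-13) and Tnfrsf25 (DR3) at 134 and 114 against 1.77 and 1.39. Tnfrsf9 (4-1BB) was lower at 21.6 and 7.89 CPM against 125 and 63.5, as was Tnfrsf13b, while Tnfrsf18 (GITR) stood at 160 and 177 against 178 and 170.

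Of 11 tested genes of tissue residency, 4 were higher and 7 were lower, with a median of -1.02. Cxcr6, a chemokine receptor of skin resident T cells, stood at 527 and 339 CPM against 143 and 112 in DETCs (1.83 ± 0.17, edgeR adjusted p = 1.95e-09). Cd44, a hyaluronan receptor, and Cd69, which keeps T cells from leaving tissue, were also higher, with the call of Cd69 lost by DESeq2. Itgae, the αE chain of the integrin that binds E-cadherin, stood at 290 and 237 CPM against 572 and 579 (-1.06 ± 0.19, edgeR adjusted p = 5.2e-05), and its partner Itgb7 at 246 and 241 against 510 and 529. Cdh1, E-cadherin itself, had 1 UMI in each library (4.32 and 3.94 CPM) against 227 and 228 CPM, 55.2-fold lower with an interval from 15.3 to 456. Ahr and Runx3, transcription factors of skin resident lymphocytes, were 3.19-fold and 5.16-fold lower. Of 10 genes of exit and circulation 6 passed the filter, of which 4, all low in DETCs, were higher and 2 lower. Klf2, which drives exit receptors, stood at 169 and 398 CPM against 24.6 and 32.4 (3.37 ± 0.23, edgeR adjusted p = 2.09e-11), and Il7r, the IL-7 receptor, at 294 and 430 against 10.4 and 9.03 (5.30 ± 0.25, edgeR adjusted p = 6.86e-15). Ccr7 and Satb1 were the others, and Tcf7 and Bcl2 were lower. S1pr1, a receptor of exit into lymph, had 5 and 2 UMIs, while 98 of the 122 cells had a UMI of Cxcr6 or Itgae.

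Cytotoxic and NK-type genes were lower in 11 of 13 tested, with none higher and a median of -3.27. Prf1, the pore-forming protein perforin, had 2 UMIs in each library (8.64 and 7.89 CPM) against 644 and 636 CPM in DETCs (-6.20 ± 0.34, edgeR adjusted p = 4.67e-13). After thinning to 1500 UMIs it was found in 0 of 60 and 0 of 61 CD4 T cells, which allows shares of cells with a UMI at that depth of up to 5.0% and 4.92% by a floor of 3 cells (exact upper limits 5.96% and 5.87%), and in 58.9% of DETCs in each library. Before thinning, 2 of 60 and 1 of 62 CD4 T cells had a Prf1 UMI. Fcer1g, an Fc receptor signalling chain, stood at 21.6 and 74.9 CPM against 2372 and 2527 (-5.58 ± 0.43, edgeR adjusted p = 1.1e-10), and Cd7 at 34.6 and 134 against 2692 and 3106. For both genes the anti-Skint1 CD4 T cells, which also had more Trdc, were the higher. Nkg7, a protein of cytotoxic granules, stood at 268 and 229 CPM against 2358 and 2492, which was 9.83-fold lower (8.22 to 11.9). Xcl1, a chemokine for cross-presenting dendritic cells, was at 0 and at least 31.4-fold lower. Hcst, the adaptor DAP10, stood at 808 and 706 CPM against 930 and 968 and Klrc1 at 21.6 and 23.7 against 7.71 and 7.80, and neither passed. Of 2 tested inhibitory receptors, Cd160 and Cd96, both were lower.

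Genes of antigen presentation, stress and survival also differed. MHC class I genes and those of peptide processing were higher in 7 of 8, with a median of 1.71, and Tapbp did not pass. B2m, the light chain of MHC class I, stood at 1884 and 1550 CPM against 488 and 450.5, and H2-K1 at 1876 and 1739 against 500 and 463. Heat shock genes were lower in 8 of 8, with a median of -1.90. No gene of either list was called against CD8 or regulatory T cells, where few genes were called at all. The medians there were 0.15 and -0.35 for MHC class I genes and -0.06 and -0.02 for heat shock genes. Neither difference from DETCs was thus seen against the other αβ T cells. Hspa1b, an inducible chaperone, stood at 229 and 205 CPM against 1790 and 1224 in DETCs (-2.72 ± 0.28, edgeR adjusted p = 1.46e-08), and Hspa8, which is made at all times, at 1050 and 962 against 1732 and 1497. Immediate-early genes were higher in 3 of 15 (Dusp2, and, though not by DESeq2, Nr4a1 and Nfkbia) and lower in 6, among them Fos (864 and 1735 CPM against 3766 and 3699), Jun and Egr1. Bcl2, a survival factor, stood at 12.96 and 19.7 CPM against 220 and 207 (-3.62 ± 0.37, edgeR adjusted p = 1.31e-08), while 4 other survival genes were higher, Bcl2a1b most (177 and 166 CPM against 8.94 and 5.03). Of 4 tested cell cycle genes Mki67 (51.9 and 103 CPM against 15.4 and 11.8) and Top2a were higher, and 2 did not pass. At least 2 UMIs of Mki67 and Top2a together were found in 7 and 8 CD4 T cells.

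Among lineage factors 5 of 9 were higher and 4 lower. Id2 stood at 1115 and 986 CPM against 304 and 315 in DETCs, and Runx1, a partner of T cell identity, at 121 and 134 against 2.25 and 1.55, whereas Tox was 3.42-fold lower. Zbtb7b, the factor that commits thymocytes to the CD4 lineage, was under the filter with 3 and 6 UMIs (12.96 and 23.7 CPM against 3.48 and 4.81). Cytokine receptors were higher in 3 of 8 (Il2ra, Il7r and Ifngr1) and lower in 2 (Il2rb and Il2rg). Of the proteins of migration and membrane repair, S100a10, Lgals1, Lgals3, Anxa1 and Crip1 were higher, and the other 5 of that list did not pass. Crip1, a small LIM protein, was among the most abundant transcripts at 10445 and 12140 CPM against 3521 and 4142. Interferon-response genes were split, with Ifi27l2a and Irf1 higher (Irf1 not by DESeq2) and Bst2 lower.

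Beyond the lists, the genes with the highest fitted difference and at least 100 CPM in the higher type were, after Cd6 and Cd5, Ifi27l2a, Ms4a6b, Tnfrsf4, Adgre5, Cd84, Cd28, Tnfrsf25, Hlf, Atp2b4, Runx1, Ikzf3, Pxdc1 and Tesc. Ms4a6b, a tetraspan membrane protein, stood at 242 and 233 CPM against 0.887 and 0.642 (8.32 ± 0.41, edgeR adjusted p = 2.58e-14). Hlf, a PAR bZIP transcription factor better known from blood stem cells, stood at 350 and 323 CPM against 4.57 and 4.17 (6.33 ± 0.27, edgeR adjusted p = 1.15e-15). In the other direction, Atp1b1, a subunit of the sodium pump, Clec2l, Gm38414, Scin, Ctnnd2, Pcdh7, Ace and Ncald had no UMI in CD4 T cells, which put them at least 16.3-fold to 38.5-fold lower. The calls of Scin and Ctnnd2 did not hold by DESeq2. Cntn1, a neural adhesion molecule, had 1 UMI against 310 and 325 CPM, a ratio of 155 with an interval from 27.7 to 6103. Gm48236, Trf, the iron carrier transferrin, and Unc5b, a netrin receptor, likewise had 1 UMI each. Ramp1, which pairs with the receptor of the neuropeptide CGRP, stood at 635 and 544 CPM against 24.2 and 14.1 (5.06 ± 0.23, edgeR adjusted p = 3.2e-15), and a Ramp1 UMI was found in 43 of 60 and 45 of 62 CD4 T cells. With only the 2 cell types in the fit, 619 genes were higher and 764 lower, and with at most 5% mitochondrial UMIs, which kept fewer cells, 284 and 301 of 1852 tested. Among the genes named above, the latter limit ended the calls of Trbc1, Tnfrsf9, Il2ra, Lgals3, Tnf, Nr4a1 and Irf1, and DESeq2 also ended those of Zap70 and Il13.

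**Figure D2:**
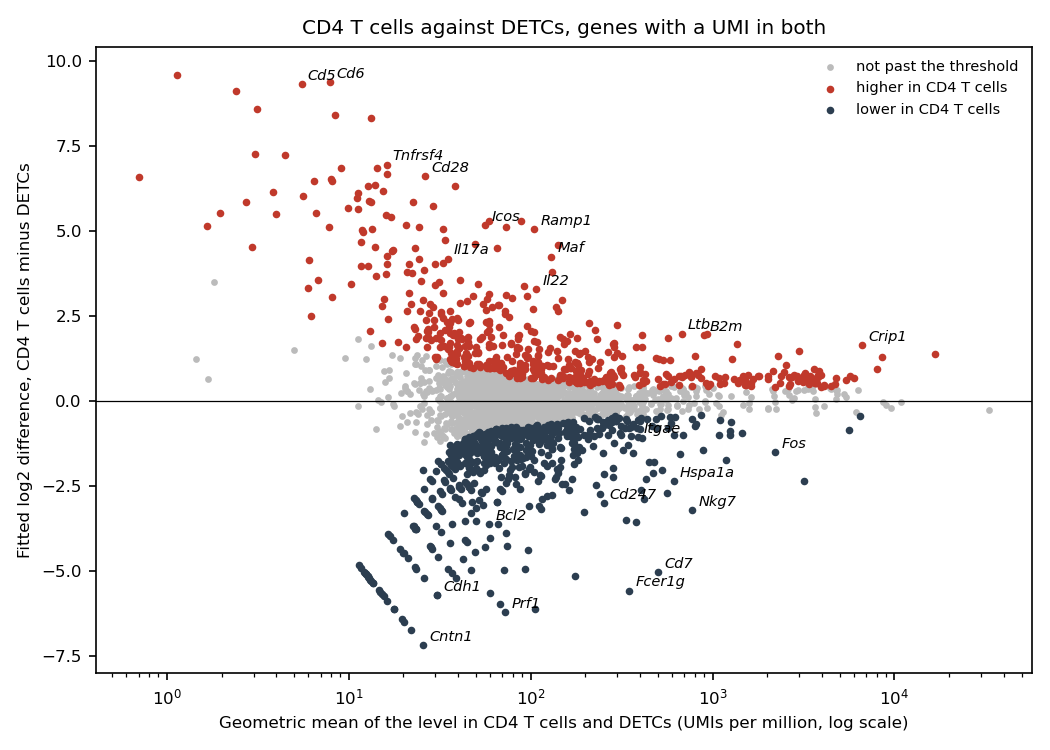
Fitted log2 difference of CD4 T cells minus DETCs against the geometric mean of their levels (CPM, log scale) for the 3208 tested genes with a UMI in both types, with genes higher in CD4 T cells in red, lower in dark blue and not past the threshold in grey; 29 genes at 0 in a type are not drawn. Cd5 and Cd6 lie at the top with fitted differences of 9.31 and 9.38, and Fcer1g and Cd7, both abundant in DETCs, lie near -5.58 and -5.03.

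The next comparison set CD4 against CD8 T cells, 39 cells (23 and 16) chosen by Trac with Cd8a or Cd8b1 and without Cd4, Cd40lg, Foxp3 or Trdv4. CD4 T cells had higher Maf, Il22, Il17a and OX40, and lower genes of cytotoxicity. Far fewer genes were called, in sums of fewer cells. In the same edgeR fit 22 of 3237 genes (0.68%) were higher and 26 (0.803%) lower in CD4 T cells.

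Among Th17 genes 3 of 6 were higher and none lower. Maf stood at 549 and 556 CPM in CD4 T cells against 139 and 114 in CD8 T cells (2.13 ± 0.29, edgeR adjusted p = 5.68e-05). Il22 stood at 385 and 276 CPM against 59.5 and 0 (3.22 ± 0.51, edgeR adjusted p = 0.000459). Il17a had no UMI in CD8 T cells, and the CD4 level was at least 7.92-fold higher over both libraries. Tnfrsf4 also had none there and was at least 9.59-fold higher in CD4 T cells. Hlf (350 and 323 CPM against 79.3 and 32.6), Tnfsf8 (303 and 292 against 89.2 and 16.3) and Ramp1 (635 and 544 against 416 and 65.2) were higher as well. For Ramp1 the CD8 sums differed from each other more than the CD4 sums did, and its call was lost by DESeq2, without the library block and with a Cd4 UMI required. Cxcl10, an interferon-inducible chemokine, stood at 220 and 126 CPM against 0 and 32.6, and Ifi27l2a at 199 and 118 against 9.91 and 0. The calls of Tnfrsf4, Ifi27l2a, Cxcl10, Tnfsf8 and, below, Itgae were lost with at most 5% mitochondrial UMIs, and that of Cxcl10 by DESeq2 as well.

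Cytotoxic and NK-type genes were lower in 7 of 13, with none higher and a median of -2.23. Nkg7 stood at 268 and 229 CPM against 1170 and 1695 in CD8 T cells (-2.49 ± 0.27, edgeR adjusted p = 3.98e-06), and Klrd1, the CD94 chain of NK receptors, at 43.2 and 78.9 against 466 and 293 (-2.64 ± 0.36, edgeR adjusted p = 5.68e-05). Ctsw, Klrk1, Xcl1, Fcer1g and Cd7 were the others, of which the calls of Fcer1g and Cd7 were lost by DESeq2, without the library block and with a Cd4 UMI required, and that of Xcl1 without the block. Prf1 (8.64 and 7.89 CPM against 69.4 and 48.9) did not pass. Ccl5, a chemokine of effector CD8 T cells, stood at 30.3 and 23.7 CPM against 882 and 538 (28.1-fold lower, 15.8 to 54.2). Ly6c2, a marker of memory CD8 T cells, was lower still, with 1 UMI against 109 and 147 CPM, and Tm6sf1 had 4, all in the isotype library. Itgae (290 and 237 CPM against 634 and 571) and Cdh1 (4.32 and 3.94 against 188 and 81.5) were lower, so that the αE integrin was lower in CD4 T cells than in either DETCs or CD8 T cells, while Cxcr6 stood at 527 and 339 CPM against 575 and 505 in CD8 T cells and did not pass. Bcl2 was lower (12.96 and 19.7 CPM against 129 and 147). Cd5, Cd6, Icos, Cd28 and Rora did not pass, with fitted log2 differences from 0.12 to 1.40.

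Against regulatory T cells, 28 cells (16 and 12) with a Foxp3 and a Trac UMI and no Trdv4, Cd8a or Cd8b1 UMI, CD4 T cells had higher Il22, Il17a, Ramp1, Tmem176b and Tnfsf8. Members of the TNF receptor family and genes known from regulatory T cells were lower. In the edgeR fit 31 of 3237 genes (0.958%) were higher and 60 (1.85%) lower. With only these cell types in the fit, which leaves 1 residual degree of freedom, 2 genes were higher and 6 lower. Of the named genes only Lgals3, Tnfrsf9, Tnfrsf4 and Ikzf2 kept their calls there, and 32 others lost theirs, which covers every other call against regulatory T cells given below. With at most 5% mitochondrial UMIs the calls of Rora, Il2ra and Lgals1, named below, were lost too. These calls thus rest on a spread shared with DETCs and CD8 T cells.

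Of 6 tested Th17 genes 2 were higher (Il22 and Il17a) and 2 lower (Rora and Batf, the latter at 38.9 and 27.6 CPM against 327 and 197, -2.87 ± 0.52, edgeR adjusted p = 0.000993). Il22 and Il17a had no UMI in regulatory T cells of either library, so that CD4 T cells were at least 10.6-fold and 4.72-fold higher. The call of Il17a was also lost without the library block. Tnfsf8 and Tmem176b, a membrane protein of the MS4A family, were likewise at 0 in regulatory T cells and at least 9.58-fold and 5.65-fold higher in CD4 T cells. Ramp1 stood at 635 and 544 CPM against 32.7 and 0 (5.11 ± 0.67, edgeR adjusted p = 1.49e-05). Lgals3, a galectin, stood at 1443 and 1207 CPM against 229 and 253 (2.63 ± 0.28, edgeR adjusted p = 9.27e-07), and S100a4, S100a11 and Lgals1 were higher too.

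TNF receptors were lower in 5 of 6, with a median of -2.47, and none was higher. The calls of Tnfrsf9 and Tnfrsf4 held with only these cell types fitted, and those of Tnfrsf18, Tnfrsf1b and Tnfrsf13b did not. Tnfrsf9 stood at 21.6 and 7.89 CPM against 1013 and 1490 in regulatory T cells (-6.22 ± 0.49, edgeR adjusted p = 4.14e-09). Tnfrsf4 stood at 194 and 162 CPM against 1503 and 872 (-2.62 ± 0.28, edgeR adjusted p = 1.49e-06), and Tnfrsf18 at 160 and 177 against 1160 and 647. OX40 in CD4 T cells therefore lay between its levels in DETCs and in regulatory T cells. Ifi27l2a, named above as higher than in CD8 T cells, stood at 199 and 118 CPM against 1013 and 450 in regulatory T cells. Ikzf2, which codes for Helios, stood at 95.1 and 31.5 CPM against 2075 and 1293 (-4.63 ± 0.30, edgeR adjusted p = 1.55e-10), and Il2ra, the high-affinity IL-2 receptor chain, at 25.9 and 39.4 against 392.2 and 225. Tff1, Il10, Ikzf4 and Il1r2 had no UMI in CD4 T cells, at least 58.5-fold, 33.4-fold, 28.4-fold and 26.7-fold lower. Rora and Itgae were lower as well (-1.11 ± 0.27 and -1.32 ± 0.26, edgeR adjusted p = 0.0173 and 0.00232), whereas Maf stood at 549 and 556 CPM against 490 and 478, and Ccr6 at 77.8 and 118 against 114 and 84.4, and neither passed.

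**Figure D3:**
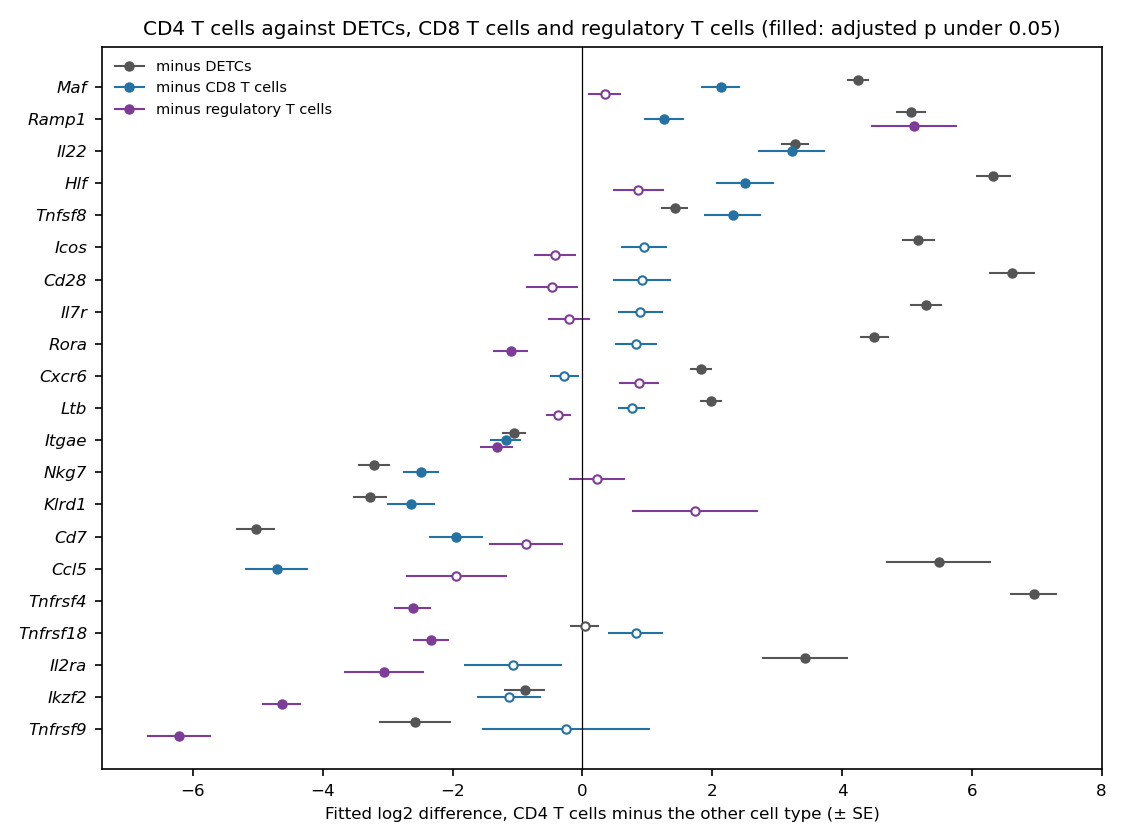
Fitted log2 difference of CD4 T cells minus DETCs (grey), CD8 T cells (blue) and regulatory T cells (purple) with its SE as a bar, filled where the edgeR adjusted p was under 0.05; a comparison with a type at 0 UMIs is left out. Ramp1 lies to the right of 0 and filled in each of the 3 comparisons, and Itgae lies to the left and filled in each.

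Transcripts of Il22, Il17a, Il17f, Ifng and Csf2 were held by few cells each, whereas Ramp1 and Maf were spread over most. Tnf lay between, in 19 and 26 cells. Il22 was found in 11 cells of each library, with 89 UMIs in the isotype and 70 in the anti-Skint1 library, of which a single cell held 34 and 43. Il17a was found in 5 and 7 cells with 25 and 46 UMIs, of which a single cell held 10 and 29. Il17f was found in 6 and 8 cells. These summed levels therefore rest on few cells. Thinned to 1500 UMIs, Il22 was found in 9 of 60 and 7 of 61 CD4 T cells and 1.97% and 1.40% of DETCs, and Il17a in 6.67% and 8.20% against 0.314% and 0.185%. Free RNA held Il22 at 31.3 and 21.98 CPM and Il17a at 5.08 and 6.11 CPM. Without the highest cell of each library, the log2 ratio of CD4 T cells to DETCs was 3.01 (2.43 to 3.54) for Il17a, 2.28 (1.94 to 2.61) for Il22, 3.30 (2.47 to 4.04) for Ifng and 2.12 (1.63 to 2.57) for Csf2. After the same thinning Ramp1 was found in 51.7% and 52.5% of CD4 T cells against 2.20% and 1.69% of DETCs, and Maf in 63.3% and 54.1% against 3.51% and 3.72%. The highest Ramp1 cell held 6.80% of the isotype and 8.70% of the anti-Skint1 UMIs of that gene.

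A UMI of Il17a, Il17f or Il22 was found in 19 of 60 isotype cells (31.7%, 20.3 to 44.96) and 22 of 62 anti-Skint1 cells (35.5%, 23.7 to 48.7), 41 of 122 in all. Of 12 cells with Il17a, 14 with Il17f and 22 with Il22, Il17a and Il17f were found together in 3, Il17f and Il22 in 3 and Il17a and Il22 in 1. Log-scaled levels of Il17a and Il17f had a Pearson correlation of 0.29 over the 122 cells, which share 2 libraries. Ifng was found in 9 cells, 1 of which also had a type 17 cytokine. Of the anti-Skint1 cells, the one with 29 Il17a UMIs had 8 Il17f and 9 Csf2 UMIs, the one with 43 Il22 UMIs had no Il17a or Il17f UMI, and the one with 20 Ifng UMIs had none of the 3. At this depth a gene not seen in a cell may still have been expressed there. A UMI of any of 9 cytokine genes (Il22, Il17a, Il17f, Csf2, Ifng, Il13, Areg, Tnf and Il2) was found in 93 of 122 cells, and in cells with 1 the median depth was 3778 UMIs against 3293 in the rest.

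Cells with a type 17 UMI were set beside the other CD4 T cells of the same library as a description. Ccr6 stood at 153 and 151 CPM in them against 43.9 and 97.3 CPM in the rest, Ramp1 at 639 and 714 against 633 and 435, and Tmem176b at 209 and 231 against 207 and 90.8. Maf stood at 584 and 472 CPM against 533 and 610, so that Maf was no higher in the cells with a type 17 UMI in the anti-Skint1 library. Across the 122 cells, log-scaled levels of Ramp1 and Tmem176b had a Pearson correlation of 0.40, Mki67 and Top2a one of 0.56, and Klf2 and Cxcr6 one of -0.31. The cells share 2 libraries and differ in depth, with which Ramp1 itself correlated at 0.25. A UMI of Cxcr6 and of Itgae together was found in 31 of 60 isotype cells (51.7%, 38.4 to 64.8) and 17 of 62 anti-Skint1 cells (27.4%, 16.9 to 40.2), with intervals that overlapped slightly.

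**Figure D4:**
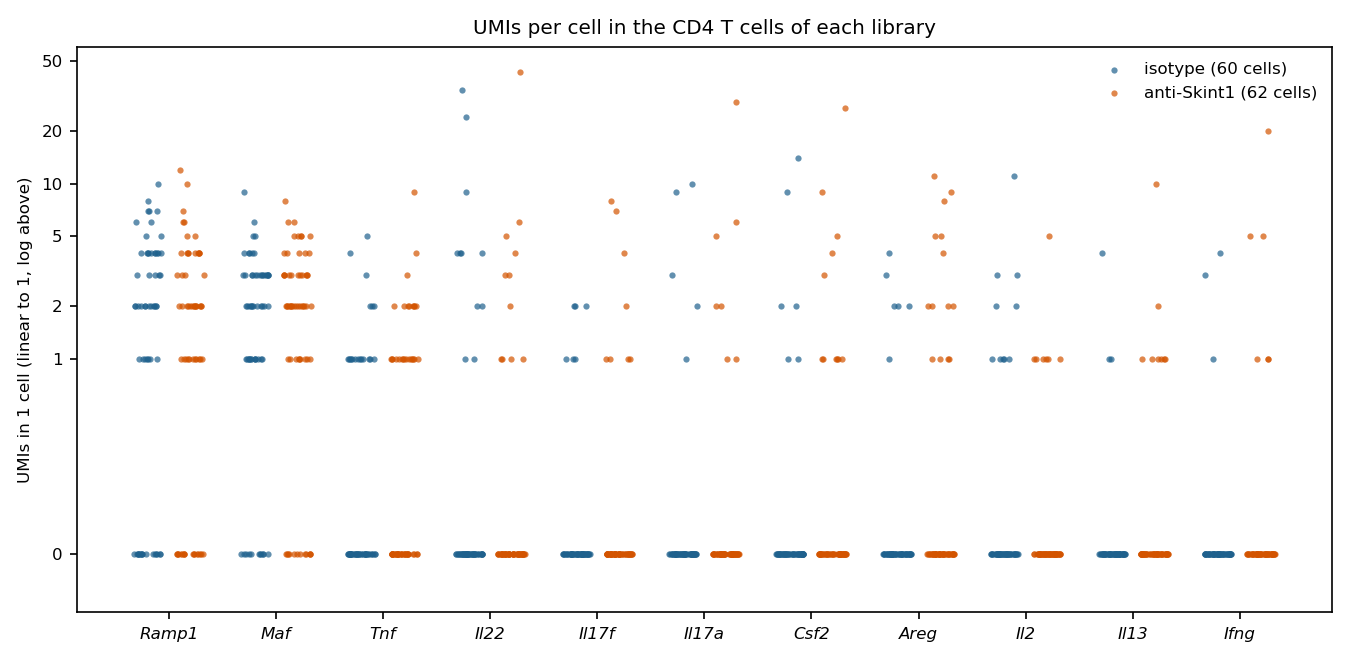
UMIs of 11 genes in each CD4 T cell (axis linear to 1 and log above), with blue points for the 60 isotype and orange points for the 62 anti-Skint1 cells, spread sideways to be seen. Ramp1 and Maf have UMIs in most cells and at most 12 in any, while Il22, Il17a, Csf2 and Ifng are at 0 in most cells and reach 43, 29, 27 and 20 in single cells.

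Few reads bore on the receptor V genes, since the 3′ tags lie far from them. Trav genes gave 34 UMIs in 22 of 122 cells, from 13 of 128 genes, and Trbv genes gave 14 UMIs in 12 cells, from 5 of 35 genes. The most UMIs were of Trav13-2 (10 UMIs in 5 cells, 4 of them isotype cells) and Trav7d-3 (5 UMIs in 3 anti-Skint1 cells). Near-identical copies of Trav genes can share reads, so a single Trav name is uncertain.

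The last comparison set the CD4 T cells of the anti-Skint1 library against those of the isotype library, in which the study had asked about the epidermal effect of blocking Skint1. For Cd5, Cd6, Maf and Ramp1 the interval of the ratio held 0, while Areg, Rgs2, Klf2 and Fos had ratios above 0 and Bcl2l1, a survival gene (77.8 CPM in the isotype and 31.5 in the anti-Skint1 cells), and AW112010 below it. Values are log2 ratios of anti-Skint1 over isotype with exact conditional binomial intervals, with no test. Among 3004 genes with at least 20 UMIs over both libraries, 118 (3.93%) had a ratio of 1 or more and 106 (3.53%) of -1 or less, and the median was -0.02. With no upper limit on genes per cell the numbers were 95 and 132 of 3216, so which direction had more genes depended on that limit.

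The ratios of Cd5, Cd6, Maf and Ramp1 were 0.20 (-0.52 to 0.93), -0.13 (-0.72 to 0.46), 0.02 (-0.34 to 0.38) and -0.22 (-0.57 to 0.12). Of 11 receptor and signal genes of αβ T cells with 20 UMIs, none was past a ratio of 1 in size, nor was any of 8 MHC class I genes or 7 heat shock genes. Over all 3004 genes only 3.93% were past it upwards and 3.53% downwards, so lists this short would hold few or none. Below that size, Lck, the kinase of the CD4 coreceptor, stood at 341 and 193 CPM (-0.82, -1.37 to -0.29), Trbc1 had -0.37 (-0.66 to -0.09) and Psmb8, an immunoproteasome subunit, -0.61 (-1.07 to -0.16). Immediate-early genes had 2 of 14 past it, both higher, beside 118 of 3004 over all genes. Their median was 0.36, against -0.02 over all genes. Fos stood at 864 CPM in the isotype and 1735 in the anti-Skint1 CD4 T cells (1.01, 0.76 to 1.25), and Fosb at 99.4 and 205 (1.04, 0.31 to 1.82). Rgs2, a brake on G protein signals, stood at 372 and 919 CPM (1.31, 0.94 to 1.68), and Klf2 at 169 and 398 (1.24, 0.69 to 1.81), of whose anti-Skint1 UMIs 1 cell held 34 of 101. In DETCs of the same libraries, Fos stood at 3766 and 3699 CPM, Rgs2 at 2413 and 1956 and Klf2 at 24.6 and 32.4. Cxcr6 went the other way in CD4 T cells, at 527 and 339 CPM (-0.64, -1.05 to -0.23), as it did in DETCs (143 and 112 CPM).

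By the rule of the highest and lowest ratios among genes with at least 50 UMIs, Cxcl2, Mt1, Areg, Tuba1b and Top2a were highest. Cxcl2, a neutrophil chemokine, had 3 and 62 UMIs, of which 1 anti-Skint1 cell held 40, and Mt1, a metallothionein, had 5 and 66, of which 1 cell held 39. Areg had 14 UMIs in 6 isotype cells and 54 in 14 anti-Skint1 cells (61 and 213 CPM; 1.82, 0.95 to 2.78), and the ratio was 1.95 without the highest cell of each library. Top2a had 15 and 45 UMIs and Tuba1b 20 and 62, both of which rise in dividing cells. Mki67, another cell cycle gene, had a ratio of 0.98 (-0.05 to 2.10), and 0.46 (-0.95 to 1.95) without the highest cell of each library. At least 2 UMIs of Mki67 and Top2a together were found in 7 of 60 and 8 of 62 cells. Lowest were Ccl1, AW112010, Fubp1, Gnai3 and Zfp644. All 289 UMIs of Ccl1, a chemokine ligand of CCR8, were in 1 isotype cell, and all of Ccl4 (38) and Ccl3 (19) in 1 anti-Skint1 cell. The latter pair are named here after their values were seen. AW112010 stood at 242 and 98.6 CPM (-1.30, -2.04 to -0.59) over 22 and 18 cells.

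For some cytokines the treatment ratio depended on single cells. Il17a had a ratio of 0.75 (0.01 to 1.51), which was 0.06 (-1.03 to 1.16) without the highest cell of each library. Il22 had -0.48 (-0.95 to -0.01), and -1.15 (-1.87 to -0.46) without it. Ifng had 1.91 (0.77 to 3.24), and 1.57 (-0.13 to 3.64) without it. For others it moved less: Il2, a T cell growth factor, stood at 112 and 43.4 CPM (-1.37, -2.54 to -0.31), and at -1.47 (-3.12 to -0.02) without it. Tnf had 0.47 with and 0.43 without it, and Csf2 0.76 and 0.72, with intervals without it that held 0. Over all genes, 152 and 130 were past the ratio of 1 when the highest cell of each library was left out for each gene. Cd7 and Fcer1g had ratios of 1.96 and 1.79 beside the higher Trdc in the anti-Skint1 cells, and 1 cell held 21 of 34 Cd7 UMIs. Without the highest cells their ratios were 0.79 (-0.64 to 2.35) and 1.34 (-0.41 to 3.45). The part of DETC RNA in those ratios was not tested.

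**Figure D5:**
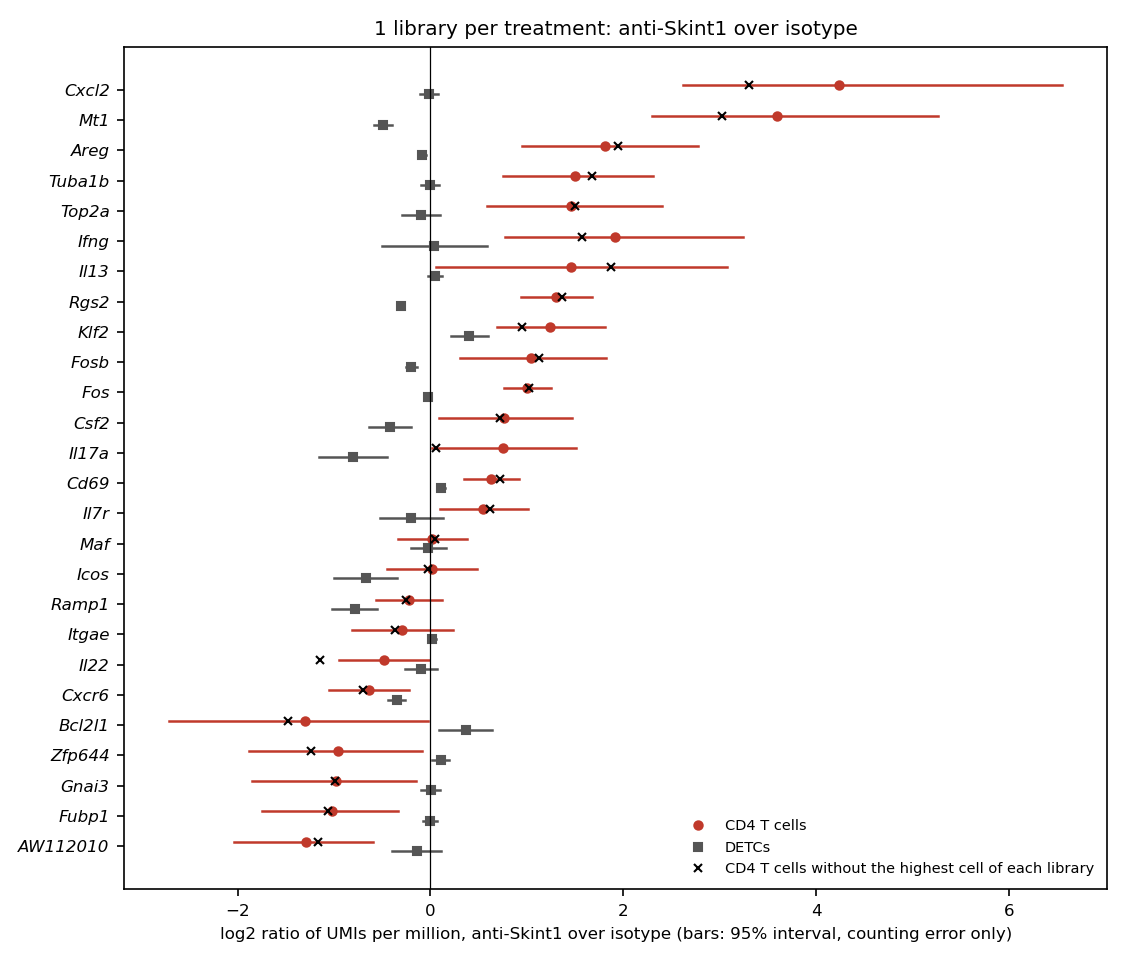
Log2 ratio of anti-Skint1 over isotype levels in CD4 T cells (red, bars are 95% intervals for counting error), the same without the highest cell of each library (crosses), and in DETCs (grey squares), with 1 library per treatment. Areg, Rgs2, Fosb and Fos have CD4 intervals above 0 and DETC intervals below 0, and the Il17a cross lies at 0.06.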

How the data were processed

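Barcode-by-gene UMI counts were analysed as deposited. Per the labels and the methods of the study, the authors made these counts with Cell Ranger 3.0.2 from 10x Genomics 3′ libraries on GRCm38, and deposited unfiltered matrices of 6794880 barcodes and 31053 features per library. The libraries held 27272211 (isotype) and 32450957 (anti-Skint1) UMIs.

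Barcodes were kept as cells between 500 and 2500 genes and up to 12% mitochondrial UMIs, and types were set by the gene rules given in the report. DETCs had at least 3 Trdc UMIs, at least 3 of Cd3d, Cd3e and Cd3g together, and none of Trac, Cd4, Cd8a and Cd8b1. Members and gene lists were chosen with earlier results of these data known. UMIs were summed by type and library and tested with edgeR 4.0.16 (R 4.3.3; quasi-likelihood, TMM, filterByExpr, terms for library and type), with Benjamini-Hochberg adjustment over all genes tested. The 12 genes of the rules entered no count. DESeq2 1.42.0 was an alternative. Ratios between treatments had exact conditional binomial intervals. Doublets were not removed: by its own threshold Scrublet (scanpy 1.11.5) marked 0 of 4896 and 1 of 6594 barcodes, and by a rate of 0.8% per 1000 barcodes 192 and 348, of which 0 and 3 were CD4 T cells. The edgeR fit was first tested on simulated data.

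Named genes were all genes of 31 lists by list. Beyond them, the 15 highest and 15 lowest called against DETCs were named, and 5 and 5 against the other types. These had the same direction in both libraries and at least 100 CPM in the higher type, without receptor genes. For treatments, 5 and 5 among genes with at least 50 UMIs were named. Sequences are from RefSeq.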

Additional observations from a re-analysis of the deposited data

Results flagged for a closer look

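For 6 named genes outside the rule, with a log2 ratio of at least 1 in size, the interval of the anti-Skint1 over isotype ratio in CD4 T cells lay on 1 side of 0 and that in DETCs of the same libraries on the other. The difference between the cell types was not tested, and there was 1 library per treatment. In CD4 T cells the log2 ratios were 3.59 for Mt1, a metallothionein, 1.82 for Areg, 1.31 for Rgs2, 1.01 for Fos, 1.04 for Fosb and -1.30 for Bcl2l1. In DETCs they were -0.49 for Mt1, -0.09 for Areg, -0.30 for Rgs2, -0.03 for Fos, -0.20 for Fosb and 0.36 for Bcl2l1. Trdc, a gene of the DETC rule, met the same criterion, at 1.76 in CD4 T cells, and 8 named genes met it with smaller ratios (Zfp644, Il17a, Cxcl10, Ltb, Csf2, Nfkbia, Lgals1 and Lgals3). Of the 66 Mt1 UMIs in anti-Skint1 CD4 T cells 1 cell held 39, whereas Rgs2 was found in 31 of 60 isotype and 49 of 62 anti-Skint1 cells and Fos in 42 and 43.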

How the results depend on the processing

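No log2 difference of a named gene that passed the test changed sign under the alternatives run, but the balance of higher and lower calls did in places. With at most 5% mitochondrial UMIs, CD4 T cells were 2.12% and 1.74% of kept cells, and with a Cd4 UMI required 0.967% and 0.705%. Against DETCs, 590 genes were higher and 914 lower of 17947 tested with no filter on low counts, and 284 were higher and 301 lower of 1852 tested with at most 5% mitochondrial UMIs (main 518 and 594 of 3237). By DESeq2 401 were higher and 405 lower of the same 3237 genes, of which 396 and 403 were among the main calls. Against CD8 T cells, 22 higher and 26 lower became 13 and 19 by DESeq2, 47 and 25 with no filter, 38 and 23 with no upper limit on genes and 33 and 24 with only these types fitted, and 10 were higher and 17 lower with at most 5% mitochondrial UMIs. Against regulatory T cells, 31 higher and 60 lower became 149 and 47 with no filter, 48 and 76 without barcodes marked by Scrublet and 18 and 60 without the library block, 2 were higher and 6 lower with only these cell types fitted, and 17 were higher and 29 lower with at most 5% mitochondrial UMIs. That limit left 87 genes with treatment ratios of 1 or more and 56 of -1 or less, of 1718. With no upper limit on genes 95 and 132 replaced 118 and 106. RLE scaling gave 501 higher and 620 lower against DETCs, and 22 and 68 against regulatory T cells. The causes were not tested. Leaving out the highest cell of each library was chosen after seeing the data. Between treatments no paired analysis was possible because each had 1 library, whereas cell types were compared within libraries by the block. Depth limited Tbx21, Il23r and Il17f most, with 34 UMIs or fewer in all CD4 T cells.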
